A study of Mus musculus with 2 samples.

Results

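The genes described here are the 9 mouse genes of G protein alpha subunits that were chosen to stand beside gustducin, out of 21888 genes listed for either library. They comprise the Gq family genes Gna14, Gnaq and Gna11, the Gi genes Gnai1, Gnai2 and Gnai3, the Gs gene Gnas, and the G12 family genes Gna12 and Gna13. All 9 were listed for the circumvallate papilla and 8 for the fungiform papillae, where Gna14 was not listed and was taken as 0. Cells came from adult α-gustducin-GFP mice on a C57BL/6J background, in which green fluorescent protein marks cells that make α-gustducin, the product of Gnat3. The marker and its promoter do not select for any of the 9 genes, but every barcode passed a sort for green fluorescence. The FP library held fungiform cells from the front of the tongue and the CV library held circumvallate cells from its back, and both shared this genotype, age class and sort. Each papilla gave 1 library, so that no test between them was made, and no source used here says how the libraries relate to single animals.

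The alpha subunit of a heterotrimeric G protein binds the activated receptor, exchanges its nucleotide and releases the beta and gamma subunits. Gi subunits inhibit adenylyl cyclase, Gs stimulates it, Gq subunits activate phospholipase C beta, and G12 and G13 act through guanine nucleotide exchange factors. Gustducin is the Gi-class subunit of taste cells and couples bitter, sweet and umami receptors to phospholipase C beta 2 through its beta and gamma partners. Gna14 is the other alpha subunit known from sweet-sensing cells at the back of the mouse tongue.

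The tables held 29 FP and 61 CV barcodes, with no barcode number in both, and 29 and 56 of these had more than 500 genes. Kept cells had more than 500 genes and Gnat3 above 0.9 on the scale ln(1 + counts per 10000), which left 21 FP and 32 CV cells. Kept cells had a median of 1141640 counts in FP and 543963 in CV, and the lowest totals were 193718 and 32726. On either side of the Gnat3 limit lay a CV barcode with 173 CPM of Gnat3 (a gene's share of the barcode's total count, scaled so that all genes together make 1e6), kept with all 9 genes at 0, and an FP barcode with 67.4 CPM, left out with Gnas at 2095 CPM and Gnai2 at 3.97 CPM. The 8 type II taste cell markers summed to a median of 21298 CPM per kept FP cell (4887 to 27190) and of 18364 CPM per kept CV cell (263 to 35988). Gnat3 is among the 8 and set the limit, so part of each sum follows from the rule. At the low end of CV the markers other than Gnat3 were nearly absent. Lingual keratinocyte markers (17 genes) summed to a median of 522 CPM in kept FP cells (98.5 to 1761) and of 14.3 CPM in kept CV cells (0 to 1213), and their part in the differences between the libraries was not tested. A run of 5 CV barcodes, numbered 171026 to 171035, adjoined a deep CV barcode numbered 171025 and had 45673 to 121188 counts each, and 4 of the 5 were kept. In bulk-like sums over cells, fewer cells with a gene and less of its RNA per cell cannot be told apart, so both the pooled level and the number of cells are given.

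Of the 9 genes, Gnai2 and Gnas were those found at 50 CPM or more in most gustducin cells of both papillae. Per kilobase of transcript, the pooled level of Gnai2 was 584 CPM per kb in FP and 631 in CV, and that of Gnas was 131 in FP and 87.7 in CV. Each of the other 7 genes lay at or below 21.7 CPM per kb in FP and 11.8 in CV, on the same scale of level per length. Gnat3, the basis of both the sort and the cell limit, stood at 3838 CPM per kb in FP and 3213 in CV. No source used here says how evenly the counts sample the length of a transcript, and this order is an approximate one.

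Gnai2, on chromosome 9 from 107614125 to 107635367 (mm10), encodes the Gi subunit common in many cell types. In 21 kept FP cells its lowest, median and highest levels were 4.73, 1153 and 2743 CPM, and in 32 kept CV cells they were 0, 1210 and 2978 CPM. The groups overlapped over nearly their whole ranges. A cell was counted as having a gene on at 50 CPM or more, which was set with the data in view, because many genes had single counts in cells that did not otherwise carry them. By that rule Gnai2 was on in 19 of the 21 FP cells, a share of 90.5% (Clopper-Pearson 95% interval 69.6 to 98.8). In CV it was on in 25 of the 32 cells, or 78.1% (60.03 to 90.7). Pooled over kept cells it reached 1294 CPM in FP (exact Poisson interval 1279 to 1309) and 1397 CPM in CV (1384 to 1411), a ratio of FP over CV of 0.926 (0.912 to 0.940). These intervals cover counting error alone and say nothing of the spread between animals. Each of the 21 FP cells had at least 1 Gnai2 count. The 2 FP cells with Gnai2 below 50 CPM had a median of 249308 counts and 61.1% mitochondrial counts. In the 19 FP cells with Gnai2 on these were 1167010 counts and 10.97%. The 7 CV cells with Gnai2 below 50 CPM had a median of 98657 counts, against 1115460 in the 25 CV cells with it on. Cells with Gnai2 below 50 CPM thus had low totals in both libraries. Some cells with it on were as shallow, down to 193718 counts in FP and 42809 in CV. The part of depth in this was not tested.

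Gnas, on chromosome 2 from 174284320 to 174346744, encodes the Gs subunit and lies in an imprinted locus with several promoters. Its lowest, median and highest levels were 4.73, 517 and 941 CPM in kept FP cells and 0, 157 and 3328 CPM in kept CV cells. FP had Gnas on in 17 of its 21 cells (80.95%, 58.1 to 94.6). CV had it on in 18 of its 32 cells (56.25%, 37.7 to 73.6). The pooled level was 511 CPM in FP (502 to 520) and 342 CPM in CV (336 to 349), a ratio of 1.49 (1.45 to 1.53). Its highest CV value came from a barcode of 62797 counts in the run of adjoining numbers. All 17 FP cells and 17 of the 18 CV cells with Gnas on also had Gnai2 on, so the pair was shared by most deep cells. Of the 50-base words of the Gnas transcript, 32.3% also occur in the overlapping antisense gene Gm20721, and the use of strand in counting is not given in the sources used here.

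**Figure D1:**
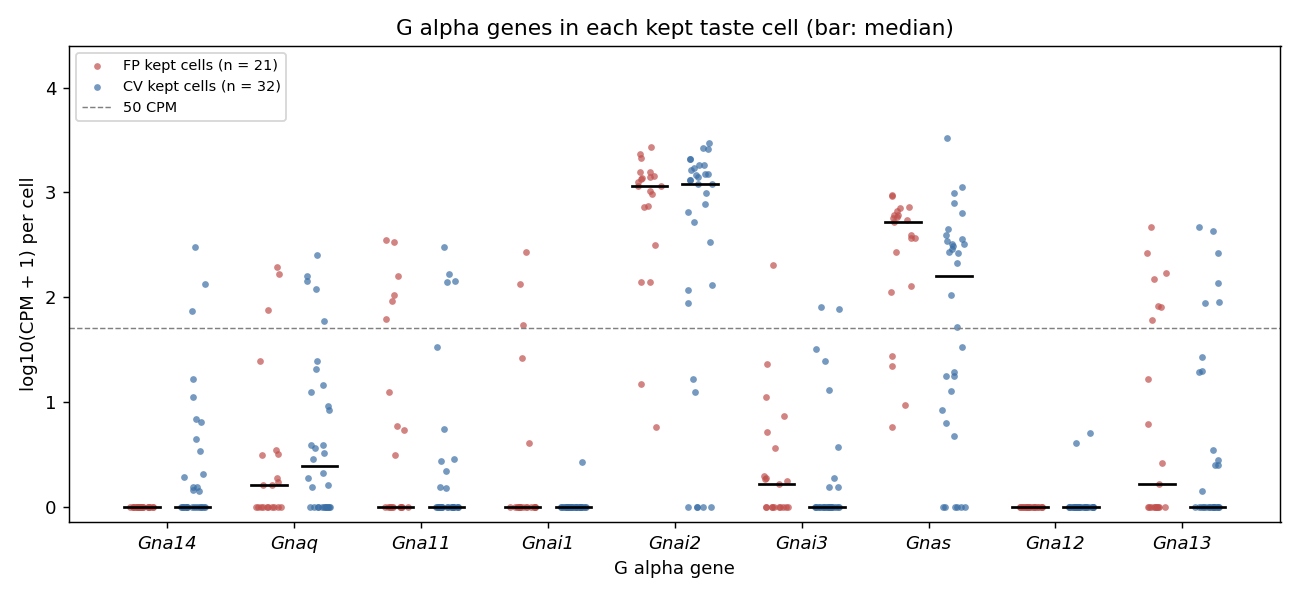
Levels of the 9 genes in each kept cell as log10(CPM + 1), with FP cells left of CV cells, a black bar at each median and a dashed line at 50 CPM. Gnai2 and Gnas fill the upper range in both papillae with medians of 1153 and 517 CPM in FP and 1210 and 157 CPM in CV, while the other genes are at or near 0 in most cells and high in a few.

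At 50 CPM or more, each Gq family gene was found in a minority of kept cells. Gna11, on chromosome 10 from 81528724 to 81545190, and Gnaq, on chromosome 19 from 16132831 to 16387463, encode the 2 widespread Gq subunits. Gna11 was on in 6 of 21 FP cells (28.6%, 11.3 to 52.2), at 60.7 to 353 CPM. In CV it was on in 4 of 32 cells (12.5%, 3.51 to 28.99), at 138 to 301 CPM. Its pooled level was 74.1 CPM in FP (70.6 to 77.7) and 40.4 CPM in CV (38.1 to 42.7), a ratio of 1.84 (1.70 to 1.98). Most FP and CV cells had no Gna11 count, and the median cell of each library was at 0.

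Gnaq was on in 3 of 21 FP cells (14.3%, 3.05 to 36.3), at 194, 166 and 75.2 CPM. In CV it was on in 5 of 32 cells (15.6%, 5.28 to 32.8), at 250, 158, 142, 119 and 58.3 CPM. Its pooled level was 31.4 CPM in FP (29.1 to 33.8) and 52.8 CPM in CV (50.2 to 55.5), a ratio of 0.595 (0.544 to 0.650). At 1 count or more Gnaq was seen in 11 FP and 20 CV cells, but only 4 FP and 7 CV cells had 10 counts or more. The 5 CV cells with Gnaq on had a median of 2081460 counts and the 27 others 377533, so Gnaq was found in deep cells there. Each of the 3 FP cells with Gnaq on also had Tas1r3, the shared sweet and umami receptor subunit, at 270, 266 and 109 CPM, and Gnaq was on in 3 of the 8 FP cells with Tas1r3 on and in 0 of the 13 without. In CV it was on in 2 of the 7 kept cells with Tas1r3 on and in 3 of the 25 without. The 8 FP cells with Tas1r3 on had a median of 1271620 counts and the 13 others 914630, and the part of depth was not tested. Cells of 1 library are not replicates, and these counts are given without a test. Gnaq and Gna11 were on together in 2 FP cells and 1 CV cell.

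Gna14 lies next to Gnaq on chromosome 19, from 16435762 to 16610820, on the same strand and 48299 bases beyond its end. In FP it was taken as 0 in all 29 barcodes. In kept cells this allows a pooled level of up to 0.132 CPM by a floor of 3 counts and 0.163 CPM by the exact Poisson interval. By the Clopper-Pearson interval Gna14 could be on in up to 16.1% of the 21 kept FP cells. In kept CV cells it had 402 counts and a pooled level of 13.6 CPM (12.3 to 15.0). It was on in 3 of 32 CV cells (9.38%, 1.98 to 25.02), at 299, 132 and 72.8 CPM from 120, 178 and 50 counts. Those 3 cells had Gnat3 at 2149, 5413 and 3664 CPM and Tas2r bitter receptor genes summing to 1145, 2613 and 2631 CPM. Tas1r3 stood at 0, 0 and 192 CPM in them, so 2 of the 3 had no Tas1r3 count. Gna14 was on in 1 of 7 kept CV cells with Tas1r3 on and in 2 of 25 without. For the umami subunit Tas1r1 it was on in 2 of 8 with and 1 of 24 without, and for Tas1r2 in 0 of 4 with and 3 of 28 without. At 1 count or more for both genes, Gna14 was seen in 10 of 17 cells with Tas1r3 and 5 of 15 without. These shares were 10 of 16 and 5 of 16 for Tas1r1, and 13 of 21 and 2 of 11 for Tas1r2. The 17 cells with Tas1r3 had a median of 1191730 counts and the 15 others 124464, and the part of depth was not tested. No kept CV cell had both Gna14 and Gnaq on, although 3 had the first and 5 the second.

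The highest Gna14 and Gnaq levels of the series were in the same CV barcode, numbered 44480, which the Gnat3 limit left out. It had 7188 Gna14 counts (1758 CPM) and 7958 Gnaq counts (1946 CPM), against at most 299 CPM of Gna14 and 250 CPM of Gnaq in any kept CV cell. It thus held 94.1% of the 7638 Gna14 counts and 83.5% of the 9536 Gnaq counts of the whole CV library. Gnat3 was at 14.9 CPM there, below each of the 32 kept CV cells, whose lowest, median and highest levels were 173, 4120 and 16848 CPM. Gnat3 made up 0.238% of the summed counts of the 9 genes and Gnat3 in that barcode, against 15.5% to 100% in kept CV cells (median 72.6%). Low Gnat3 in it follows from the limit. The limit did not use Gna14 or Gnaq, but the barcode was singled out after its levels were seen, so their height in it is a description only.

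In barcode 44480 the beta and gamma partners, the phospholipase and the cation channel were within the wide range of the kept CV cells, while a sweet receptor subunit was above it. Gng13, the gamma partner of gustducin, was at 3917 CPM, against a median of 3011 CPM in kept CV cells. Plcb2, the phospholipase, was at 2005 CPM against a kept CV median of 1279 CPM, and Trpm5, the cation channel that depolarises the cell, was at 1369 CPM against 1541 CPM. Gnb3, the beta partner, was at 2588 CPM, below 25 of the 32 kept CV cells. The sweet receptor subunit Tas1r2 was at 2211 CPM, above each of the 32 kept CV cells, whose highest level was 127 CPM. Tas1r3 was at 632 CPM, above all but 1 of those cells. Gnai2 (1183 CPM), Gnas (1082 CPM), Gna13 (138 CPM), Gna11 (89.8 CPM) and Gnai3 (53.6 CPM) were also on, so that 7 of the 9 genes passed 50 CPM there, against a median of 2 (0 to 5) in kept CV cells. Ric8a, a chaperone of alpha subunits, was at 281 CPM in that barcode, above all but 1 of the kept CV cells, and Rgs21, a regulator of G protein signalling in taste cells, was at 537 CPM, above all but 3. The barcode had the most counts of its library (4088415) and 9949 genes, and whether it held more than 1 cell was not tested. A single barcode has no replicate in these data.

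**Figure D2:**
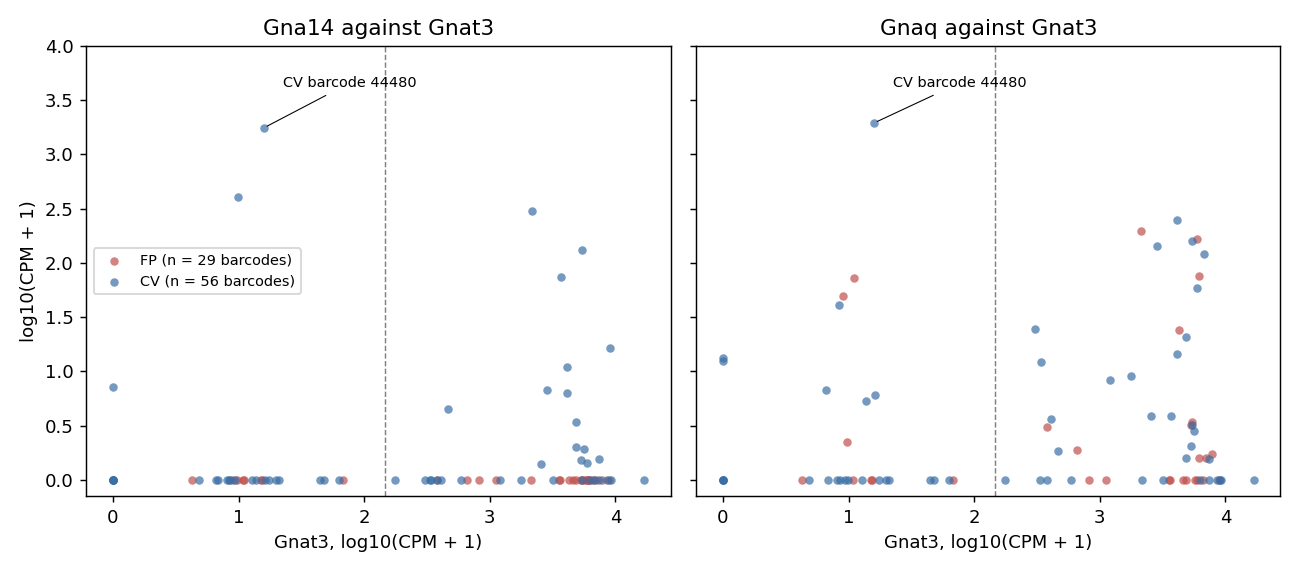
Gna14 (left panel) and Gnaq (right panel) against Gnat3 in every barcode with more than 500 genes, all as log10(CPM + 1), with the Gnat3 limit as a dashed line. CV barcode 44480 stands apart at 1758 CPM of Gna14 and 1946 CPM of Gnaq with 14.9 CPM of Gnat3.

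**Figure D3:**
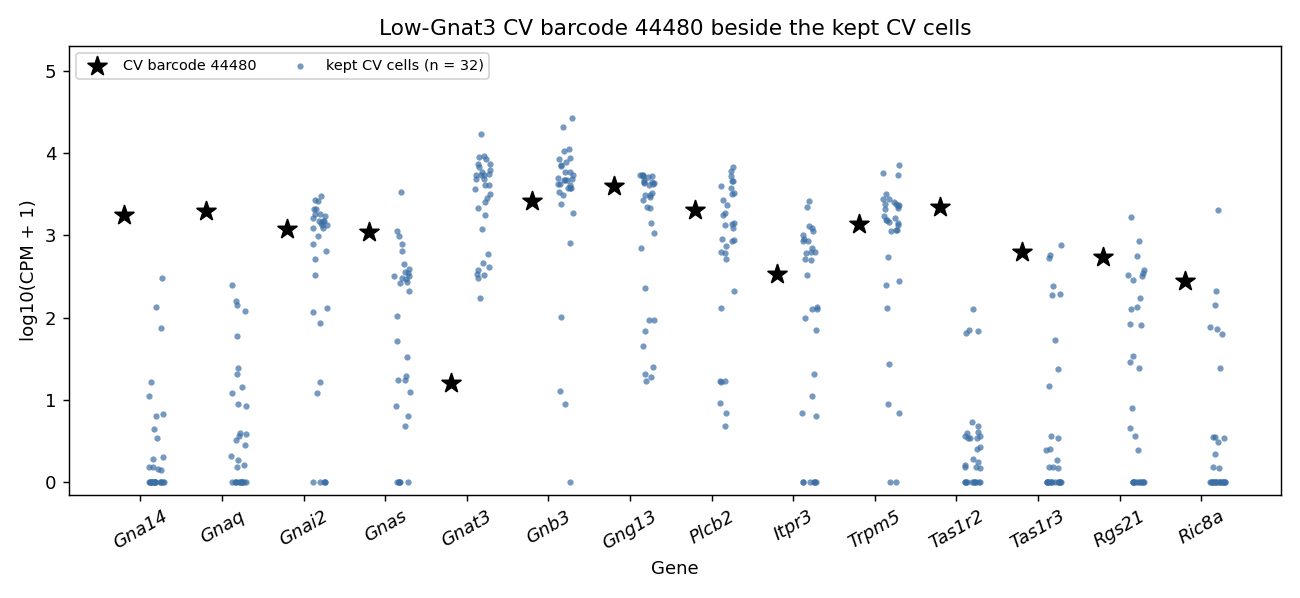
Levels of alpha subunit, taste pathway, receptor and regulator genes in CV barcode 44480 (star) beside the 32 kept CV cells (points), as log10(CPM + 1). The star lies above all points for Gna14, Gnaq and Tas1r2, below all points for Gnat3 and among the points for Gng13, Plcb2 and Trpm5.

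The promoters of Gna14 and Gnaq are shown because the neighbouring genes were highest in the same barcode, and that of Gnat3 for comparison. Gnat3 was low in that barcode through the limit, at 14.9 CPM. It was not the lowest, since the 24 CV barcodes below the limit had a median of 8.01 CPM. Each is 300 bases from RefSeq on GRCm38.p6, read 5′ to 3′ on the strand of the gene, from 250 bases before the RefSeq start of the gene to 50 after it. RefSeq starts differ from the GENCODE starts given for the genes here, and the Gna14 and Gnaq windows end before the GENCODE starts. Capitals mark matches on either strand to the octamer ATGCAAAT, the GC box GGGCGG, the CCAAT box CCAAT or the TATA box TATAAA.
Gna14, chr19:16435417-16435716, plus strand: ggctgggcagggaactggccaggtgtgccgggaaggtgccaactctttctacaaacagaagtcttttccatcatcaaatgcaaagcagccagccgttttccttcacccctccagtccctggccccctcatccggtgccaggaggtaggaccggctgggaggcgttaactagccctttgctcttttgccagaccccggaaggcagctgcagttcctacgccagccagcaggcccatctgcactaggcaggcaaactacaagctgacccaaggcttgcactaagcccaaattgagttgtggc
Gnaq, chr19:16132434-16132733, plus strand: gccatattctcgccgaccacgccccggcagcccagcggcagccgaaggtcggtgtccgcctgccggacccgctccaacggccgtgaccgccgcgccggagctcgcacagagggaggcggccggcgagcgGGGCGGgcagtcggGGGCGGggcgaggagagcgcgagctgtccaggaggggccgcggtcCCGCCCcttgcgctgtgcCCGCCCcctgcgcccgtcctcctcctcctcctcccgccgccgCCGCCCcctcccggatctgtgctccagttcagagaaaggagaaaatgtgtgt
Gnat3, chr5:17962320-17962619, plus strand: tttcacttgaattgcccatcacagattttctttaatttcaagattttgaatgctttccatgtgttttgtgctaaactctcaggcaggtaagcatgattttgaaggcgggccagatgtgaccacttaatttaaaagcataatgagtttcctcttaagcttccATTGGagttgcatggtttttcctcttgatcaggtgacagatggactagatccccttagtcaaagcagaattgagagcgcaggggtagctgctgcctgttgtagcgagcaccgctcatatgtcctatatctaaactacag
The Gnaq window held 5 GC box matches and was 75% G and C, the Gna14 window held no match to any of the 4 motifs and was 58% G and C, and the Gnat3 window held 1 CCAAT match and was 42% G and C. Of 32851 promoter windows of this length, 35.7% held a GC box match, 37.4% a CCAAT match, 13.6% a TATA match and 1.74% an octamer match. None of the windows of the 8 genes with an entry in the table (all but Gnai2) held the octamer.

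Other low-Gnat3 CV barcodes carried at most 1 of the 9 genes each. There were 24 CV barcodes with more than 500 genes below the Gnat3 limit, and 5 of them had any of the 9 genes on. Apart from barcode 44480, a barcode of 112716 counts had Gna14 at 408 CPM, a barcode of 45614 counts had Gnas at 4757 CPM, and barcodes of 233047 and 168001 counts had Gnai2 at 1103 and 387 CPM. Those with Gna14 or Gnai2 had 81.5% to 93.4% mitochondrial counts. Over all genes with at least 10 CPM in either set, on the log2(CPM + 10) scale, where changes of low genes are understated, 57.2% were at least 2-fold higher in kept CV cells than in the 24 low-Gnat3 barcodes and 11.0% at least 2-fold lower. Of the 9 genes, Gnai2 was higher (1397 CPM in kept cells and 685 CPM in low-Gnat3 barcodes), and Gna14 (13.6 and 959 CPM) and Gnaq (52.8 and 1057 CPM) were lower. The Gnai2 call was lost, leaving 0 higher, without mitochondrial and ribosomal RNA counts, at more than 1000 genes, and at limits of 60% mitochondrial and 10% ribosomal RNA counts. Without barcode 44480 the 2 lower calls were gone, with Gna14 at 13.6 CPM in both sets and Gnaq at 52.8 CPM in kept cells and 5.20 CPM in the others. Then 6 of the 7 that passed 10 CPM were at least 2-fold higher in kept cells, beside 90.1% of all genes higher and 3.22% lower.

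Among the Gi genes, Gnai1 and Gnai3 were on in fewer kept cells than Gnai2. Gnai1, on chromosome 5 from 18265135 to 18360355, lies 245301 bases beyond the end of Gnat3 and on the other strand. It was on in 3 of 21 FP cells (14.3%, 3.05 to 36.3), at 269, 134 and 53.1 CPM, and in 0 of 32 CV cells, so a share as high as 9.38% is allowed by a floor of 3 cells and 10.9% by the Clopper-Pearson interval. Its pooled level was 33.7 CPM in FP (31.3 to 36.2) and 0.0677 CPM in CV (0.00820 to 0.245), from 763 counts in FP and 2 counts in CV. The ratio of FP over CV had an interval of 137 to 4116 from those counts, and 49.1% of the FP counts came from 1 cell. Each of the 3 FP cells with Gnai1 on had bitter receptor genes summing to 1510, 1635 and 2002 CPM, and 13 of all 21 kept FP cells had a bitter receptor gene on. Gnai1 was also on at 149 CPM in a keratin-rich FP barcode, so within FP it was not limited to gustducin cells.

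Gnai3, on chromosome 3 from 108107280 to 108146146, encodes the remaining Gi subunit. In kept cells it was on in 1 of 21 FP cells, at 203 CPM, and in 2 of 32 CV cells, at 78.8 and 75.4 CPM. Its pooled level was 12.4 CPM in FP (10.999 to 13.9) and 11.4 CPM in CV (10.3 to 12.7), and the interval of the ratio, 0.922 to 1.27, included equal levels.

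Pooled over FP gustducin cells, Gnai2 was higher and Gnai3 lower than in keratin-rich FP barcodes. Of the 8 low-Gnat3 FP barcodes, 7 had at least 10000 CPM summed over the lingual keratinocyte markers (60796 to 190432 CPM), and no other FP barcode exceeded 1761 CPM. That sum was chosen as a limit after the data were seen. Their median total was 1679950 counts and their Gnat3 was at most 14.3 CPM. Gnai2 had lowest, median and highest levels of 4.73, 1153 and 2743 CPM in kept FP cells and of 0, 4.96 and 121 CPM in keratin-rich barcodes. Gnai3 had levels of 0, 0.627 and 203 CPM in kept FP cells and of 0, 77.8 and 1468 CPM in keratin-rich barcodes, where it was on in 5 of 7. The overlap in Gnai2 came from 2 kept FP cells at 4.73 and 13.9 CPM. Pooled, Gnai2 was at 1294 CPM in kept FP cells and 58.9 CPM in keratin-rich barcodes, a ratio of 21.97 (20.4 to 23.7), and Gnai3 at 12.4 and 215.6 CPM, a ratio of 0.0575 (0.0507 to 0.0651). A single keratin-rich barcode gave 52.2% of the Gnai3 counts of that set, and Gnai3 exceeded Gnai2 in 4 of the 7 barcodes. Gnai1 was at 33.7 CPM in kept FP cells and 12.7 CPM in keratin-rich barcodes, a plain ratio of 2.66 (2.23 to 3.19). On the log2(CPM + 10) scale this was 0.947, just short of 2-fold.

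Over all genes with at least 10 CPM in either set, 48.4% were at least 2-fold higher in kept FP cells than in keratin-rich barcodes and 18.0% at least 2-fold lower. Of the 9 genes, 3 were higher, namely Gnai2, Gnas (511 CPM in kept cells and 104 CPM in keratin-rich barcodes) and Gna13 (71.7 and 24.4 CPM), and 2 were lower, namely Gnai3 and Gna12. Since 8 of the 9 passed 10 CPM (Gna14 was at 0 in both sets), these are 3 of 8 and 2 of 8, against 48.4% and 18.0% of all genes. All 199 Gna12 counts of the keratin-rich set came from 1 barcode. Against all 8 low-Gnat3 FP barcodes the counts were also 3 and 2, beside 48.1% and 17.8% of all genes. Without the highest barcode of each gene the higher count was 4 and the lower count 1. Gnaq (31.4 and 29.5 CPM) and Gna11 (74.1 and 55.3 CPM) were within 2-fold. The 2 sets come from 1 library and were set apart by Gnat3 and keratin genes, so no test was made.

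**Figure D4:**
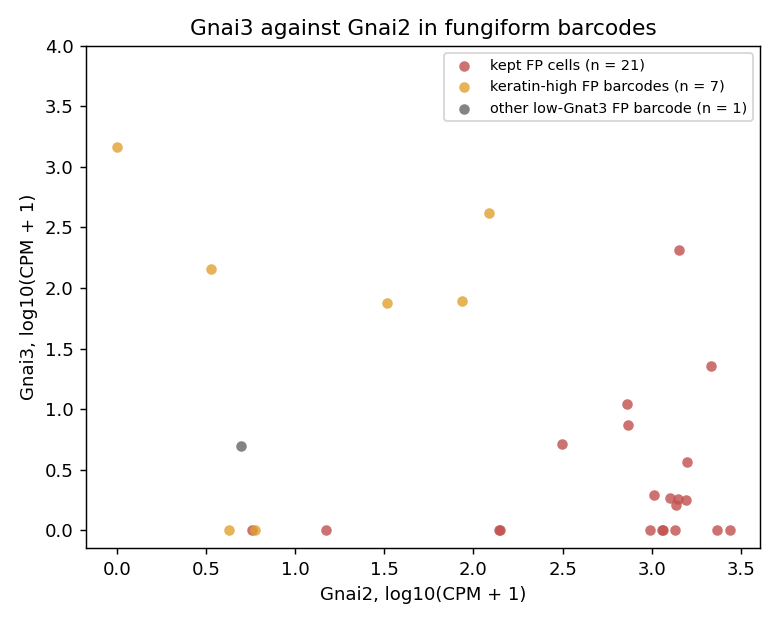
Gnai3 against Gnai2 in each FP barcode, both as log10(CPM + 1), for 21 kept cells, 7 keratin-rich ("keratin-high") barcodes and 1 other barcode. Most kept cells lie to the lower right with Gnai2 up to 2743 CPM, and keratin-rich barcodes to the left with Gnai2 at most 121 CPM and Gnai3 up to 1468 CPM. The exceptions are 2 kept cells on the left, with Gnai2 at 4.73 and 13.9 CPM, and another with Gnai3 at 203 CPM.

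Of the G12 family, Gna13 was found in part of the cells of both papillae and Gna12 in almost none. Gna13, on chromosome 11 from 109362831 to 109401369, was on in 7 of 21 FP cells (33.3%, 14.6 to 56.97), at 60.1 to 464 CPM. In CV it was on in 6 of 32 cells (18.75%, 7.21 to 36.4), at 86.6 to 471 CPM. Its pooled level was 71.7 CPM in FP (68.2 to 75.2) and 71.8 CPM in CV (68.8 to 75.0), with an interval of the ratio from 0.934 to 1.06. Gna12, on chromosome 5 from 140758408 to 140830431, had 0 counts in kept FP cells and 16 counts in 2 kept CV cells. It was on in no barcode of the series, and its highest level, 48.8 CPM from 199 counts, was in a keratin-rich FP barcode of 4078945 counts. Gna12 shares 10.9% of its 50-base words with the overlapping antisense gene Amz1, so its few counts are uncertain.

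Between the papillae, 2 of the 9 genes differed by at least 2-fold in the pooled kept cells. On the log2(CPM + 10) scale Gnai1 was higher in FP, by 2.12 (33.7 CPM in FP and 0.0677 CPM in CV). On the same scale Gna14 was higher in CV, with a ratio of FP over CV of -1.24. Among the 10918 genes that reached 10 CPM in FP or CV, 17.0% passed 2-fold towards FP and 21.0% towards CV, and 8 of the 9 genes passed the same 10 CPM limit. Thus 1 of 8 in each direction is not above the share of all genes. The median log2 ratio of the 9 genes was -0.0032, beside -0.05 over all 10918 genes. With a floor of 3 counts over the FP cells the Gna14 ratio of CV over FP was 102.7, and the exact counting interval began at 83.2. Both treat counts as independent, whereas Gna14 was on in only 3 of 32 CV cells and in 0 of 21 FP cells. The Clopper-Pearson interval of the FP share reached 16.1%, which includes the CV share of 9.38%. A single CV cell gave 44.3% of the 402 counts. Without the highest cell for each gene the Gna14 value was -0.98, short of 2-fold. With the Gnat3 limit dropped, barcode 44480 and the keratin-rich barcodes entered, and Gnaq (-2.70 over all barcodes, with 30.5 CPM in FP against 254 in CV) and Gnai3 (1.89, with 81.9 and 14.8 CPM) also passed 2-fold, beside 17.0% of all genes higher in FP and 18.7% higher in CV.

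**Figure D5:**
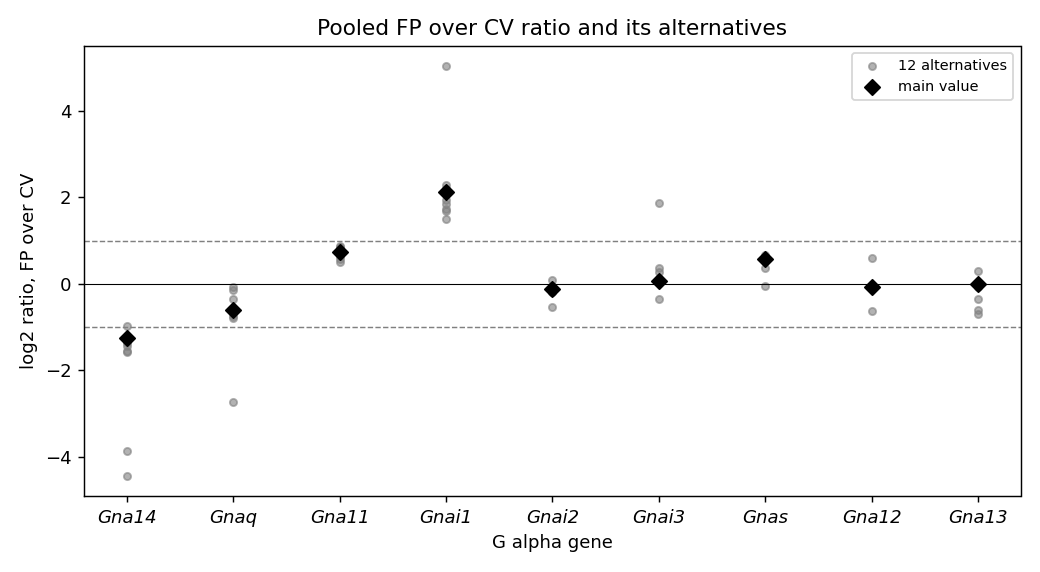
Log2 ratio of FP over CV for each of the 9 genes on the log2(CPM + 10) scale, with the main value as a diamond, 12 alternative ways of computing it as grey points, and dashed lines at 2-fold. Gnai1 stays above 1 (1.498 to 5.02). Gna14, taken as 0 in FP, cannot rise above 0 and runs from -4.43 to -0.98.

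Within single cells, several alpha subunit genes were on together. A kept FP cell had a median of 3 of the 9 genes on (0 to 5) and a kept CV cell a median of 2 (0 to 5). No gene was on in 1 FP cell and 6 CV cells. Any Gq family gene was on in 7 FP cells and 10 CV cells, and more than 1 in 2 of each.

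Among the partners of the alpha subunits, the counts of genes past 2-fold differed between the lists. Gq effectors, effectors of G12 and G13, and regulators had more genes past 2-fold towards CV than towards FP, as did all genes together. For the effectors of G12 and G13, 2 of 8 is near the share of all genes, and their median leaned to FP. The beta, gamma and cyclic AMP lists did not. Only genes that reached 10 CPM in FP or CV were counted, and the counts stand beside 17.0% of all such genes past 2-fold towards FP and 21.0% towards CV. Of 5 beta subunit genes 4 were counted and none was at least 2-fold apart, with Gnb3 at 6518 CPM in FP and 5164 CPM in CV. Of 12 gamma subunit genes 4 were counted and 1 was higher in FP, namely Gng10 (29.1 CPM in FP and 4.16 CPM in CV), which is named after its values were seen. Of 14 Gq effector genes 9 were counted, and 4 passed 2-fold towards CV and 0 towards FP (median log2 ratio -0.52), among them Prkcd, a protein kinase C isoform, at 0 CPM in FP and 87.9 CPM in CV. Of 28 genes of the cyclic AMP branch 12 were counted, and 3 were higher in FP and 3 in CV (median -0.43), with the phosphodiesterase gene Pde4d at 81.6 CPM in FP and 238 in CV, and the kinase subunit gene Prkar2a at 76.9 and 24.9 CPM. All 8 effector genes of G12 and G13 were counted, and 2 were higher in CV (median 0.13), among them the exchange factor Arhgef1 (21.8 CPM in FP against 72.0 in CV). Of 26 regulator genes 19 were counted, and 5 were higher in FP and 8 in CV (median -0.31). Ric8b, a chaperone of Gs-class subunits, was at 40.8 CPM in FP and 139 CPM in CV, while Gnas itself was within 2-fold. All these medians stand beside -0.05 over all genes.

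For 7 of the 9 genes, other genes had a likeness of 0.5 or more across the kept cells. Likeness was the Spearman correlation across kept cells of CPM without mitochondrial and ribosomal RNA counts, and the lower of the FP (21 cells) and CV (32 cells) values was used, over 1954 or 1955 genes found in at least 25% of the cells of each library. The genes most like Gnaq were Atrx (0.66), Plekhg5 (0.62) and Add1 (0.58), and those most like Gna11 were Tomm20 (0.64), Ndufb8 (0.59) and Timm8b (0.58). The genes most like Gnai2 were Tubb4b (0.54), Tspan1 (0.54) and Cpeb4 (0.53), and those most like Gnas were Cbr1 (0.58), Eif5 (0.57) and Mdh2 (0.56). For Gnai3 the closest was Atp6v0e2 (0.61) and for Gna13 Atp5f1 (0.54). The closest to Gnai1 reached 0.34, and Gna12, at 0 in kept FP cells, could not be compared. Gna14 could be compared in CV alone, where Kcnq1, a potassium channel gene, was closest (0.87). Cells share library and depth, since each of Gnaq, Gna11 and Gna14 itself correlated with the total count in CV, at 0.59, 0.57 and 0.48. The values are a description of these cells, and the median gene reached 0.15 for Gnaq, 0.14 for Gna11 and 0.12 for Gnai2. For Gna14, over 2562 genes in CV, the median gene reached 0.32. The named genes were picked as the highest of each pool in these same cells. Gnai3 was on in only 1 kept FP and 2 kept CV cells. Of the 15 kept CV cells with a Gna14 count, 10 had 1 to 9 counts, so low counts weigh on such ranks.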

How the data were processed

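Green fluorescent cells of adult mice were sorted, captured on the BD Rhapsody system, amplified by TAS-Seq and sequenced, per the labels. The authors deposited raw counts for each gene in each barcode. The submitters' processing notes name Seurat 2.3.4, Bowtie2 2.3.4.1, cutadapt 2.10 and the build mm10. No source used here says whether molecular barcodes were collapsed, how strand was used or how reads matching several genes were assigned. Intervals cover counting error alone, and are narrower than they should be if copies of a molecule were counted.

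Total counts, genes and CPM were computed per barcode and over pooled kept cells (python 3.11.15, scipy 1.17.1). The submitters' limit on Gnat3 is not unambiguous, and here the limits were more than 500 genes and ln(1 + 10000 x Gnat3/total) above 0.9. Doublets were not called. Ratios used log2(CPM + 10), and genes needed 10 CPM in either set. With 1 library per papilla no test was made. The ratio and its intervals were checked on simulated pooled counts of genes at higher levels, without variation between cells. That check does not cover genes at low levels or with most counts in a few cells, as several of the 9 are. The 50 CPM level and the keratin limit were set after seeing the data. Gene positions and transcripts came from GENCODE M21, and the 50-base words were compared with all its transcripts. The 9 genes and the pathway lists were chosen with earlier results of these data known. Named genes were the 9, Gnat3, the Tas1r genes, list members at 50 CPM or more in either library, and the 3 genes closest in pattern at 0.5 or more. Hashtag libraries were not analysed here.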

Additional observations from a re-analysis of the deposited data

How the results depend on the processing

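No paired analysis was possible because each papilla has 1 library, and no library could be left out. Of the 9 log2 ratios of FP over CV, those past 2-fold were Gnai1 and Gna14. Under 12 alternatives Gnai1 ran from 1.498 to 5.02 and Gna14 from -4.43 to -0.98. Since Gna14 was taken as 0 in FP, its ratio could not turn positive under any alternative. Barcode 44480 was not a kept cell, so the alternative that left it out repeated the main values. Gna11 ran from 0.51 to 0.87 and Gnaq from -2.72 to -0.07. Gnas (-0.05 to 0.66), Gnai2 (-0.53 to 0.08), Gna13 (-0.69 to 0.29), Gnai3 (-0.35 to 1.88) and Gna12 (-0.62 to 0.59) changed sign in at least 1, and in each they were under 2-fold but for Gnai3 without the Gnat3 limit.

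The count of the 9 genes at least 2-fold higher in CV was 1, became 0 without the highest cell of each gene, and became 2 without the Gnat3 limit, where the count higher in FP, otherwise 1, was also 2. The 3 genes higher in kept FP cells than in the 8 other FP barcodes became 4 without mitochondrial and ribosomal RNA counts and with 1 CPM added in place of 10. They also became 4 with the Gnat3 limit on a log10 scale, without the highest cell and without the deepest 10% of cells. The 2 genes lower in kept FP cells than in the 8 other FP barcodes became 1 with the mean over cells, without the highest cell and without the deepest 10% of cells. The 1 gene higher in kept CV cells than in the 24 other CV barcodes became 0 without mitochondrial and ribosomal RNA counts, at more than 1000 genes and under the limits of 60% mitochondrial and 10% ribosomal RNA counts, where the 2 lower genes became 4. It became 3 with the mean over cells and 4 with cells thinned to 71770 counts. It became 4 without the highest cell, and 6 without the deepest 10% of cells or without barcode 44480, and in these 3 settings 0 genes were lower. Leaving out barcode 44480 or the run of adjoining barcodes was chosen after seeing the data, and the cause of the other changes was not tested. The FP over CV counts did not change without the run of adjoining barcodes.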
